A study of Mus musculus with 20 samples.

Results

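Among 35080 distinct probe sets measured in mouse dorsal epidermis, 8 were strongly lower in skin injured by imiquimod on day 4, were still lower in the injured area of recovery skin on day 8, and had nearly the level of unaffected recovery skin after wax stripping. They are described here together and are called probe sets 1 to 8, in the order of their mean loss. They were chosen by their measured values: on the log2(value + 16) scale and over the mean of the 2 arrays of each group, injured minus unaffected skin had to be at or below -1.2 both in the imiquimod and in the recovery experiment, and wax-stripped minus unaffected recovery skin had to lie between -0.4 and 0.3, in each of the genotypes. Those 6 differences, and any difference made of them, are therefore given as a description. Counts of calls on them are printed beside the share of all probe sets only to give the background, and nothing is read from them.

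The arrays came from C57B6 mice of 2 genotypes, Grhl3 WT and Grhl3 cKO, each labelled Krt14cre. Wax-stripped skin was taken on day 4 from mice labelled male. Areas called unaffected and areas called injured were taken on day 4 from imiquimod-treated mice labelled female, and on day 8, as recovery, from mice labelled male. This makes 10 groups of 2 arrays, 20 in all, and the labels name the replicates as biological. The labels used here give no age and do not say whether an injured and an unaffected area came from the same mouse. No skin of the wax experiment without stripping was used here, so wax-stripped skin is set against unaffected recovery skin, from which it also differs in experiment and day.

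Imiquimod activates innate immune receptors, and the cream produces a psoriasis-like inflammation driven by the interleukin-23 and interleukin-17 pathways, with a thickened epidermis whose differentiation is disturbed. Wax stripping is a mechanical injury that pulls off the outer cornified layers and hair shafts and is followed by repair of the barrier. Grhl3 is a grainyhead-like transcription factor needed for the skin barrier, and a Krt14-driven Cre acts in basal keratinocytes and the cells that derive from them.

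The probe sets carry no gene names here. The platform table gives 1 symbol for 21789 IDs, among them 7 of the 8 members, but the values did not bear out the pairing. Labels of ribosomal protein genes had a median percentile of the mean signal of 54.6 (210 probe sets) and labels of olfactory receptors, which skin should not express, one of 52.1 (1023 probe sets). The IDs of the members with the largest mean loss, 10495371 for probe set 1 and 10457536 for probe set 2, thus name positions in the deposited table. Neither the Grhl3 transcript nor the marker genes of a cell type could be read. Since the tissue is bulk epidermis, a loss of cells of a type and less RNA per cell cannot be told apart for any of the 8.

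The median intensity of the arrays lay between 169 and 200, and the 2 arrays of a group correlated at 0.983 to 0.992. In 5 probe sets, none of them a member, the 8 arrays labelled female were parted from the 8 male arrays of wax-stripped and unaffected recovery skin by a gap of 3.67 to 6.74 (log2). In all 5 the 4 arrays of injured recovery skin, labelled male, were nearer to the arrays labelled female. The recovery loss therefore compares arrays that differ in these probe sets as well as in injury, and injured recovery skin is also given below against unaffected imiquimod skin.

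**Figure D1:**
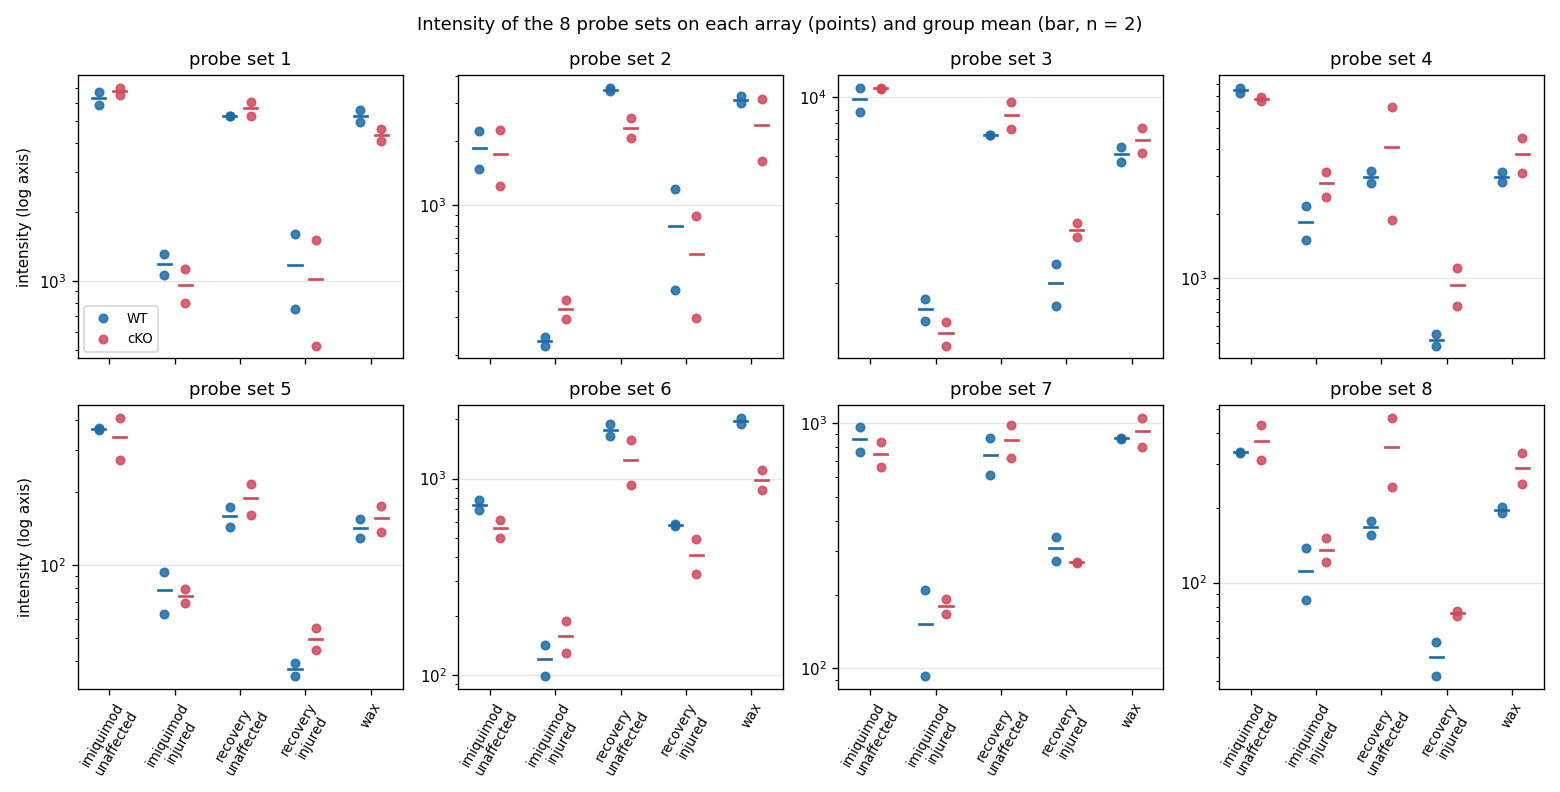
Intensity of probe sets 1 to 8 on each of the 20 arrays (log axis), by skin area and genotype; points are arrays and bars are the means of 2. In every panel the injured arrays lie below the unaffected arrays of their own experiment, and the wax-stripped arrays lie near unaffected recovery skin, both of which the choice of the members favours.

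Probe set 1 showed the loss in its plainest form. In unaffected imiquimod skin it read 5879 and 6712 in WT and 7018 and 6548 in cKO mice, and in the injured areas 1305 and 1060 in WT and 796 and 1125 in cKO mice. Unaffected recovery skin read 5296 and 5278 in WT and 5297 and 6094 in cKO mice, and injured recovery skin 754 and 1601 in WT and 521 and 1514 in cKO mice. Wax-stripped skin read 5608 and 4974 in WT and 4604 and 4080 in cKO mice. The lowest of the 12 arrays of unaffected or wax-stripped skin, 4080, thus lay above the highest of the 8 injured arrays, 1601. The injured recovery arrays of cKO mice differed most from each other, with an SD of 1.07 (log2, n = 2).

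All 8 probe sets had this arrangement within each experiment: the 4 injured arrays lay below the 4 unaffected ones, with no overlap, in imiquimod and in recovery skin. The loss limits that chose the members favour this separation, and it was not counted over all probe sets, so nothing is read from it. Injured imiquimod skin kept 12.6% to 33.3% of the mean intensity of unaffected skin in WT mice (median of the 8 18.1%) and 11.9% to 40.6% in cKO mice (median 23.0%). Injured recovery skin kept 17.5% to 41.8% in WT mice (median 25.4%) and 17.9% to 36.7% in cKO mice (median 26.1%). The imiquimod difference had a median of -2.44 in WT and -1.95 in cKO mice (log2), against 0.01 and 0.00 over all distinct probe sets, and the recovery difference one of -1.80 and -1.76, against -0.07 and -0.10. limma, a linear model fitted across all probe sets, called all 8 lower in each of these 4 comparisons (Benjamini-Hochberg adjusted p under 0.05), which their choice fixed. Of the 26310 probe sets tested, 20% and 18.5% were called lower in imiquimod skin of WT and cKO mice, and 16.5% and 26.3% in recovery skin.

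**Figure D2:**
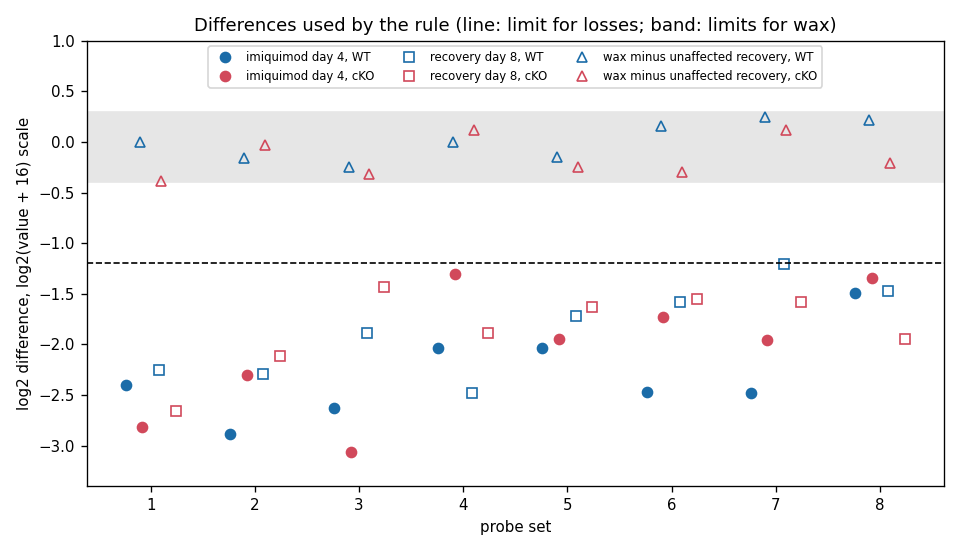
The 6 log2 differences that chose the members, for each probe set: imiquimod loss (filled circles), recovery loss (squares) and wax minus unaffected recovery (triangles), in WT (blue) and cKO (red) mice. The recovery loss of probe set 7 in WT mice, -1.204, nearly touches the limit, and that of probe set 4 in WT mice, -2.48, lies below its imiquimod loss.

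Wax-stripped skin differed from unaffected recovery skin by -0.25 to 0.25 in WT mice and by -0.39 to 0.12 in cKO mice, with medians of 0.00 and -0.23. The medians over all distinct probe sets were -0.10 and -0.09. In intensity, wax-stripped skin had 84.2% to 118% of the unaffected recovery level in WT and 76.2% to 109% in cKO mice. Of the 32 single values of wax-stripped skin (4 arrays for each of 8 probe sets), 19 lay inside the range of the 4 unaffected recovery arrays. The wax limits favour this, and it was not counted over all probe sets. It was 4 of 4 in probe sets 4 and 8, where unaffected cKO recovery skin had an SD of 1.23 and 0.62 (log2, n = 2). It was 1 of 4 in probe sets 1, 3 and 6, 2 of 4 in probe set 5 and 3 of 4 in probe sets 2 and 7. limma called 0 of the 8 after wax stripping in either genotype, again by choice, where 22% of all probe sets were called in WT and 24% in cKO mice. At an unadjusted limma p under 0.05, 0 of the 8 passed, and 9769 of 26310 in WT and 9799 in cKO mice. In 7 of the 8, all 4 wax-stripped arrays lay above all 8 injured arrays, which the limits favour and which was not counted over all probe sets.

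The exception was probe set 4, in which injured imiquimod skin reached the wax level. Injured imiquimod arrays read 1501 and 2158 in WT and 2398 and 3114 in cKO mice, and wax-stripped arrays 3119 and 2811 in WT and 3093 and 4475 in cKO mice. Unaffected imiquimod skin was far above both, at 7671 and 7229 in WT and 6950 and 6632 in cKO mice. Unaffected recovery skin read 2763 and 3161 in WT and 1862 and 6259 in cKO mice, and injured recovery skin 488 and 549 in WT and 746 and 1114 in cKO mice. The 2 arrays of unaffected cKO recovery skin differed here more than any other pair of arrays of a group in the 8 probe sets, with an SD of 1.23 (log2, n = 2). Their mean is the reference for both the recovery loss and the wax difference of probe set 4 in cKO mice.

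The wax difference is described next for all probe sets lost in both experiments. It shares its reference, unaffected recovery skin, with the recovery loss, so a high level there lowers both. The share of all probe sets within the wax limits was not counted, so the counts do not show how rare this level was. The 4 loss limits alone kept 256 probe sets. After wax stripping 206 of them lay below -0.4 in both genotypes, 52 of these at or below -1.2 in both. Another 40 were within the wax limits in WT mice and not in cKO mice, 2 in cKO mice and not in WT mice, and 8 in both. The median wax difference of the 256 was -0.73 in WT and -1.05 in cKO mice, and the values ran from -3.81 to 0.77 in WT and from -3.83 to 0.12 in cKO mice. The 8 have neighbours just outside the limits.

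**Figure D3:**
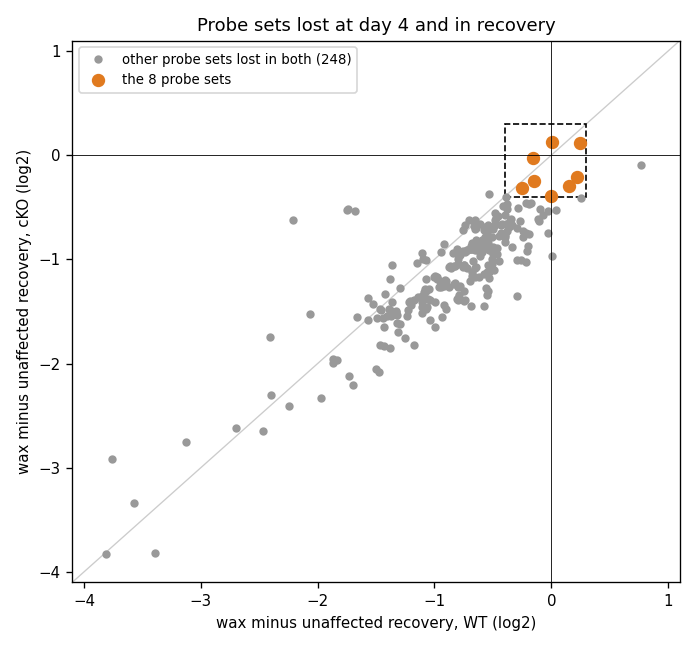
Wax-stripped minus unaffected recovery skin (log2) in WT and cKO mice for the 256 probe sets lost both at imiquimod day 4 and in recovery; the dashed box marks the limits of -0.4 and 0.3, and the grey line equality. Most probe sets (206) lie below the box in both genotypes, and the 8 inside it (orange) adjoin others just below it.

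Near the limits, membership turned on small values. Probe set 7 was inside by its WT recovery loss of -1.204 and probe set 1 by its cKO wax difference of -0.389. Probe set 8 was inside the upper wax limit at 0.22 in WT mice, and probe set 3 inside the lower one at -0.32 in cKO mice. Of the 4 probe sets just outside, 3 missed by a cKO wax difference of -0.4005 or -0.414, or by a cKO recovery loss of -1.186, and the fourth missed by both cKO losses, at -1.192 for imiquimod and -1.154 for recovery. The count also turned on the cKO arrays of wax-stripped and unaffected recovery skin. It became 1 without wax-stripped cKO replicate 1, 14 without wax-stripped cKO replicate 2, 4 without unaffected cKO recovery replicate 1 and 15 without its replicate 2, with 1, 6, 2 and 5 of the 8 among them. In WT mice alone the rule chose 61 probe sets and in cKO mice alone 23, so that the 8 make up 13.1% of the WT and 34.8% of the cKO list.

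The 5 non-members most like the 8 in pattern, by Pearson correlation with their mean profile over the 20 arrays, had r of 0.977 to 0.988. All 5 met every limit but the wax limit in cKO mice, where they lay between -0.41 and -0.66. The members' own correlations with that profile, of which each is a part, ran from 0.764 for probe set 4 to 0.976 for probe set 1. These correlations describe profiles over the same 20 arrays and carry no test.

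Like areas of the imiquimod and recovery experiments could be compared with each other, injured with injured and unaffected with unaffected. The rule set no limit on these differences, but it used the same arrays. The injured difference minus the unaffected one equals the recovery loss minus the imiquimod loss, which is made of values that chose the members. The calls below are therefore not independent of the choice. In the injured areas, averaged over the genotypes (4 arrays against 4), limma called 7 of the 8 probe sets, where 38.6% of all probe sets were called. Probe sets 2, 3, 6 and 7 were higher in injured recovery than in injured imiquimod skin (22.5% of all were called higher), and probe sets 4, 5 and 8 were lower (16.2% of all). In the unaffected areas 5 of the 8 were called, against 30.7% of all: probe set 6 was higher in recovery (16.9% of all), and probe sets 3, 4, 5 and 8 were lower (13.8% of all). The members' median difference was 0.35 in the injured and -0.32 in the unaffected areas, against 0.00 and 0.04 over all probe sets tested. Without the 4 injured recovery arrays in the model, an alternative chosen after seeing the data, 5 of the 8 were called between the unaffected areas, 2 higher and 3 lower. Day, experiment and labelled sex differ together between these groups and cannot be told apart. The 4 injured recovery arrays, labelled male, were nearer to the arrays labelled female in the 5 probe sets that part the labels. Between the injured areas the label and these probe sets thus disagree, and the part of sex was not tested.

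**Figure D4:**
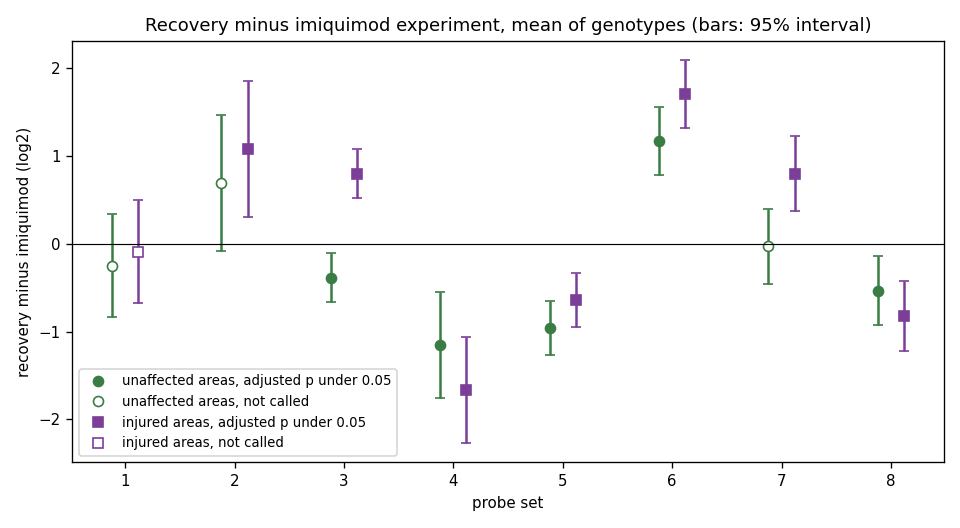
Recovery minus imiquimod experiment (log2, mean of both genotypes) in unaffected (green circles) and injured (purple squares) areas for each probe set; bars are 95% intervals of the limma estimate and open symbols were not called. Probe sets 4, 5 and 8 lie below 0 in both areas and probe set 6 above 0 in both, while probe set 3 is lower in the unaffected and higher in the injured area.

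Probe sets 4, 5 and 8 were called lower in both kinds of area of the recovery experiment, averaged over the genotypes. In probe set 8 the unaffected cKO means lay close together, at 352 in recovery and 372 in imiquimod skin. The difference between injured areas was -1.67 ± 0.28 for probe set 4 (limma estimate ± SE, limma adjusted p = 0.000492) and that between unaffected areas -1.16 ± 0.28 (limma adjusted p = 0.00803). In these 3, all 4 injured recovery arrays lay below all 4 injured imiquimod arrays, an order that was not counted over all probe sets. Probe set 5 read 360 and 370 in unaffected imiquimod skin of WT mice and 407 and 272 of cKO mice, and 63.0 to 94.0 in the 4 injured arrays. In unaffected recovery skin it read 144 and 174 in WT and 160 and 217 in cKO mice, in injured recovery skin 34.9 to 54.9, and after wax stripping 155 and 130 in WT and 175 and 137 in cKO mice. Wax-stripped skin therefore had 38.9% of the unaffected imiquimod level in WT and 45.9% in cKO mice. Its unaffected areas differed by -0.96 ± 0.14 and its injured areas by -0.64 ± 0.14 (limma adjusted p = 0.000467 and 0.00336).

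Probe set 8 had the smallest mean loss. Its unaffected imiquimod arrays read 333 and 335 in WT and 431 and 312 in cKO mice, and its injured ones 84.9 and 138 in WT and 121 and 151 in cKO mice. Unaffected recovery skin read 156 and 178 in WT and 243 and 461 in cKO mice, injured recovery skin 42.2 to 76.6, and wax-stripped skin 202 and 191 in WT and 332 and 249 in cKO mice. The injured areas differed by -0.83 ± 0.18 (limma adjusted p = 0.00338), a call kept in all 27 alternatives in which the probe set was tested. That of the unaffected areas, -0.53 ± 0.18 (limma adjusted p = 0.0428), was kept in 14 of 28, with adjusted p from 0.00668 to 0.18. It was lost after quantile normalization, without a filter on dim probe sets, with its own arrays alone, without the 4 injured recovery arrays, and without any 1 of 10 arrays. These were both WT arrays of wax-stripped, unaffected imiquimod and unaffected recovery skin, cKO replicate 1 of both kinds of unaffected skin, and both cKO arrays of injured recovery skin.

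Over the 20 arrays, probe sets 4, 5 and 8 correlated with each other at r of 0.912 to 0.931. Probe sets 2 and 6 correlated at 0.930, while probe sets 4 and 6 correlated at 0.22, the lowest of the 28 pairs, whose median was 0.805. The points of each correlation share groups, and the grouping of the probe sets was made after their values were seen, so no test is attached.

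Probe set 6 ran the other way. Unaffected imiquimod skin read 690 and 778 in WT and 617 and 499 in cKO mice, and its injured areas 142 and 99.2 in WT and 188 and 130 in cKO mice. Unaffected recovery skin read 1648 and 1891 in WT and 1575 and 923 in cKO mice, and its injured areas 572 and 590 in WT and 326 and 494 in cKO mice. Wax-stripped skin read 1899 and 2040 in WT and 1101 and 874 in cKO mice. All arrays of unaffected recovery and of wax-stripped skin thus lay above all arrays of unaffected imiquimod skin, and the injured recovery arrays, low within their experiment, overlapped with unaffected imiquimod skin. The recovery experiment was higher by 1.17 ± 0.18 in unaffected and by 1.71 ± 0.18 in injured areas (limma adjusted p = 0.000541 and 1.52e-05).

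Probe set 2 had a like order of groups with more spread between arrays. Its unaffected arrays read 1477 and 2214 in WT and 2251 and 1224 in cKO mice in the imiquimod experiment, and 3398 and 3537 in WT and 2547 and 2059 in cKO mice in recovery. Its injured arrays read 221 to 359 in imiquimod skin, and in recovery skin 403 and 1193 in WT and 299 and 890 in cKO mice. After wax stripping it read 3220 and 2999 in WT and 3137 and 1610 in cKO mice. The higher level in injured recovery skin, 1.08 ± 0.36 (limma adjusted p = 0.0295), was lost without injured imiquimod replicate 1 or 2 of either genotype, without injured recovery replicate 2 of either genotype, and with only the arrays of the comparison. Its adjusted p over the alternatives ran from 0.0063 to 0.131. The unaffected areas differed by 0.70 ± 0.36, which was not called (limma adjusted p = 0.157).

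The difference between the recovery loss and the imiquimod loss is made of values that chose the members, so it is described without a test. It ran from -0.51 for probe set 4 to 1.18 for probe set 3, with a median of 0.35 against -0.01 over all probe sets tested. limma called 2 of the 8, probe sets 3 and 7, both with the smaller loss in recovery. Of all probe sets 27.9% were called, 15% with a higher and 12.9% with a lower value in recovery, so the share among the 8 lay near the background. In probe set 3, injured skin kept 16.1% of the unaffected level at imiquimod day 4 and 27.4% in recovery in WT mice, and 11.9% and 36.7% in cKO mice. The recovery loss was the smaller by 1.18 on the log2 scale, averaged over the genotypes. Its arrays in the imiquimod experiment read 8844 to 10889 in unaffected and 1157 to 1741 in injured skin, and in recovery 7246 to 9627 and 1628 to 3367. After wax stripping they read 5727 to 7667, of which 1 of 4 arrays lay in the range of unaffected recovery skin. Its higher level in injured recovery skin, 0.80 ± 0.13, was called in all 28 alternatives (limma adjusted p = 0.000374), and its lower level in unaffected recovery skin, -0.39 ± 0.13 (limma adjusted p = 0.0373), was lost without any 1 of 6 of the 8 unaffected arrays, all but WT imiquimod replicate 1 and cKO recovery replicate 2.

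In probe set 7, injured skin kept 17.5% at imiquimod day 4 and 41.8% in recovery in WT mice, and 23.99% and 31.7% in cKO mice. The arrays read 659 to 966 in unaffected and 93.4 to 209 in injured imiquimod skin, and 611 to 980 in unaffected and 268 to 343 in injured recovery skin. The wax-stripped arrays read 797 to 1050, and this was the only one of the 8 within the wax limits also against unaffected imiquimod skin. The injured areas differed by 0.80 ± 0.20 (limma adjusted p = 0.00653), in all 28 alternatives. The recovery loss was the smaller by 0.83 on the log2 scale, averaged over the genotypes, a call kept in 12 of 28 alternatives. It was lost after quantile normalization, without a filter on dim probe sets, with only the arrays of the comparison and without any 1 of 13 arrays. The 7 arrays whose removal kept it were both wax-stripped cKO arrays, replicate 1 of unaffected imiquimod skin of either genotype, replicate 1 of injured WT imiquimod skin, and replicate 2 of unaffected recovery skin of either genotype. Probe set 1 was called in neither kind of area: its injured areas differed by -0.09 (95% interval -0.68 to 0.50) and its unaffected areas by -0.25 (95% interval -0.84 to 0.34).

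The 8 were also set against unaffected imiquimod skin. The rule used this skin as the reference of the imiquimod loss only. The loss limits favour a high level in it and a low level in injured recovery skin. The counts below were not made over all probe sets, so nothing is read from them. Against unaffected imiquimod skin, injured recovery skin was still at or below -1.2 in both genotypes in 7 of the 8. Probe set 6 was the exception, at -0.33 in WT and -0.45 in cKO mice. Wax-stripped skin against unaffected imiquimod skin was within the wax limits in both genotypes in 1 of the 8, probe set 7. It lay below them in both genotypes in 3 (probe sets 3, 4 and 5), above them in both in 2 (probe sets 2 and 6), and was within them in 1 genotype in the other 2, WT for probe set 1 (-0.25) and cKO for probe set 8 (-0.33). These differences ran from -1.33 for probe set 4 to 1.41 for probe set 6 in WT mice, and from -1.03 for probe set 5 to 0.80 for probe set 6 in cKO mice. That wax-stripped skin lay within the limits against unaffected recovery skin was fixed by the choice of the members. Labelled sex differs between wax-stripped and unaffected imiquimod skin, and its part was not tested.

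Grhl3 genotype was compared in each kind of skin, a difference on which the rule set no limit. All limits had to be met in both genotypes, however. The wax limits thus restrict how far the genotype difference after wax stripping could depart from that in unaffected recovery skin. The counts below are therefore not fully independent of the choice. limma called 0 of the 8 in any of the 5: after wax stripping (1 at an unadjusted p under 0.05, and 0.27% of all probe sets called), in unaffected (0 unadjusted, 0.0076% of all) and injured imiquimod skin (0 unadjusted, 0.137% of all), and in unaffected (1 unadjusted, 0% of all) and injured recovery skin (1 unadjusted, 1% of all). These shares are of adjusted calls. At an unadjusted limma p under 0.05, in the same order, 1813, 2555, 3062, 800 and 3529 of the 26310 probe sets passed. Few probe sets of the array were called in any of these comparisons, so 0 of 8 is near the background. The mean over the 5 kinds of skin called 0 of the 8 as well, where 1.49% of all were called. At an unadjusted limma p under 0.05, 3 of the 8 and 3939 of the 26310 passed. The adjusted count among the 8 became 1 without injured WT imiquimod replicate 2 and 3 without unaffected cKO recovery replicate 1.

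**Figure D5:**
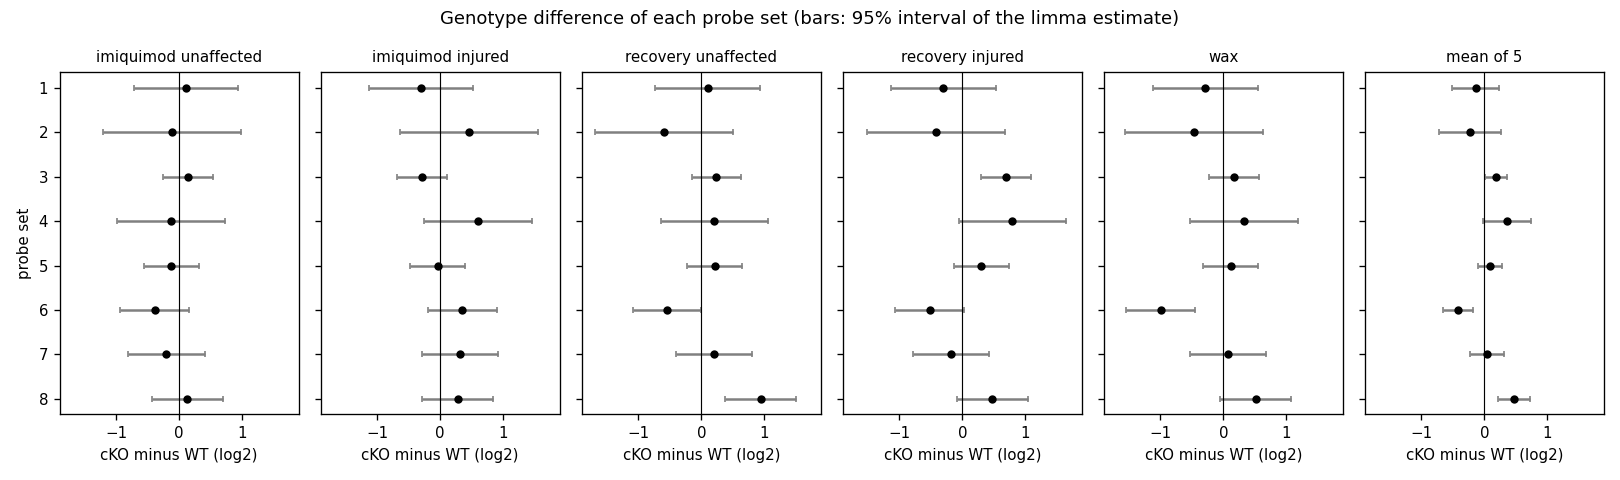
Grhl3 cKO minus WT (log2) for each probe set in the 5 kinds of skin and averaged over them; points are limma estimates and bars their 95% intervals. No difference was called; the mean difference lies furthest from 0 in probe sets 6 (-0.42) and 8 (0.47).

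The 95% intervals of the genotype differences are those of single comparisons and are not adjusted for the number of probe sets tested. Those given here were picked from the intervals of all 8 members. An interval that leaves out 0 is therefore not a call. The largest estimate after wax stripping was that of probe set 6, with WT at 1970 ± 100 and cKO at 987 ± 160 (SD, n = 2 each), a difference of -0.99 with a 95% interval of -1.54 to -0.45 (limma adjusted p = 0.21). Averaged over the 5 kinds of skin, probe set 6 had -0.42 (95% interval -0.66 to -0.17, limma adjusted p = 0.096), and probe set 8 had 0.47 (95% interval 0.22 to 0.72, limma adjusted p = 0.0708). Probe set 8 was higher in cKO than in WT mice in 5 of 5 kinds of skin, by 0.13 to 0.95, and the largest of these, in unaffected recovery skin, rests on the pair of 243 and 461. Probe set 3 had 0.69 in injured recovery skin (95% interval 0.30 to 1.08, limma adjusted p = 0.113).

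The losses of the genotypes were set against each other as a description, since the rule held each of them at or below -1.2 and so restricted how far they could differ. For the imiquimod loss limma called 0 of the 8 and 0.0038% of all. At an unadjusted limma p under 0.05, 0 of the 8 and 1103 of 26310 passed. The median difference was 0.33 against 0.02 over all probe sets. For the recovery loss limma called 0 of the 8 and 0.137% of all, with a median of 0.06 against 0.01. Unadjusted, 0 of the 8 and 2326 of 26310 passed. The widest interval, for the imiquimod loss of probe set 2, ran from -0.97 to 2.13, which leaves large differences possible in either direction. The narrowest, for probe set 3, ran from -0.99 to 0.12.

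The 8 were set beside 2 other lists made with the same limits. Of the 52 probe sets lost in both experiments and after wax stripping too, 51 passed the filter on dim signal, and 26 of these were called between the unaffected areas, 25 of them higher in recovery, with a median of 0.29. Over all probe sets tested, 30.7% were called, 16.9% higher and 13.8% lower, with a median of 0.04. Of the 38 lost at imiquimod day 4 and within -0.4 and 0.3 in recovery, 37 passed, and 15 were called, 12 of them lower in recovery, with a median of -0.24. The 8 had 4 lower and 1 higher and a median of -0.32. Between the injured areas, 29 of the 51 were called (25 higher in recovery, 4 lower), 36 of the 37 (36 higher) and 7 of the 8 (4 higher, 3 lower). Of all probe sets 38.6% were called, 22.5% higher and 16.2% lower. For the mean genotype difference the counts were 0 of 51, 1 of 37 and 0 of 8, and at the wax genotype difference 0 in each. Each list was chosen by differences between injured and unaffected skin, so its calls between like areas are partly set by the choice. For the 38, a loss at imiquimod day 4 without a like loss in recovery favours a higher level in injured recovery skin. Nothing is read from their count between the injured areas. For the 52, the recovery loss and the wax loss both favour a high level in unaffected recovery skin. Whether the lists differ in these counts was not tested.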

How the data were processed

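RNA from epidermis lifted off with dispase was measured on Affymetrix arrays. The authors deposited linear intensity for each probe set. They used Expression Console and PLIER, per the submitters' processing notes, with no version in the sources used here. Further normalization by the authors is not stated. Of 35556 probe sets, the first of each set with identical values was kept (35080). Values were taken as log2(value + 16), so changes of dim probe sets are understated. Those under the 25th percentile of mean signal were left out of tests, which left 26310 and all 8 members.

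A group-means model over 20 arrays was fitted with limma 3.58.1 in R 4.3.3 (10 residual degrees of freedom), with Benjamini-Hochberg adjustment over all probe sets per comparison and a threshold of 0.05. The model was tested on simulated data. All 8 members are described: the rule for single description (largest losses, highest levels, nearest to the limits, called) covers them. At most 2 IDs are printed. Planned marker lists were not used, since names were not borne out. The members, lists and tests were chosen with earlier results of these data known. Alternatives were other pseudocounts (1 and 64), quantile normalization, other filters, limits and reference skin, trend and robust settings, a replicate block and leaving out each array. Same-numbered arrays deviated from their group means together (r above 0.1) in 7 of 45 pairs of groups, and the numbers were not taken as pairing. Injured and unaffected groups of the same experiment and genotype were not looked at separately, so this cannot exclude that they share mice. In recovery, the injured arrays lay nearer to the arrays labelled female in all 5 probe sets that part the labelled sexes. The unaffected recovery arrays were among the male arrays on the other side. What this means for shared mice in recovery was not tested. The replicate block fitted a common effect over all groups and no effect of a mouse. The number of arrays limits the precision. The limma p-values weigh a difference between groups against the spread between arrays of a group, estimated over all 10 groups. They treat the arrays as independent, although areas may share mice.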

Additional observations from a re-analysis of the deposited data

Results flagged for a closer look

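limma called the difference between the recovery loss and the imiquimod loss in 2 of the 8 probe sets, where it called 27.9% of all probe sets tested. Both losses were used to choose the 8, so these calls are no independent test. In probe set 3 the recovery loss was the smaller by 1.18 on the log2 scale, averaged over the genotypes. It was -1.88 against an imiquimod loss of -2.62 in WT mice, and -1.43 against -3.06 in cKO mice. In probe set 7 it was the smaller by 0.83, also in both genotypes, and this call held in 12 of 28 alternatives. The experiments differ in day and labelled sex as well, and the 4 injured recovery arrays were nearer to the arrays labelled female in the 5 probe sets that part the labels; their part was not tested. Groups of 2 arrays allow no search for single outlying arrays.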

How the results depend on the processing

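The number of members, 8, was 9, 7 and 7 with pseudocounts of 1 and 64 and after quantile normalization, of which 8, 5 and 6 were the same probe sets. It was 16 with losses at or below -1.0, 5 with losses at or below -1.4, 6 with wax limits of -0.3 and 0.3, 13 with the wax reference in unaffected imiquimod skin (1 shared), 11 with the recovery reference there (7 shared), and 109 with no limit on recovery. Applied to WT or cKO mice alone, chosen after seeing the data, the rule gave 61 and 23. Leaving out each array gave 1 to 15. The counts of members called in the tests stayed within 1.5 times of those reported, with these exceptions. The difference of the losses (2 called, a description) gave 1 after quantile normalization, without a filter and with only its own arrays, and 1 to 3 without any 1 array. That between unaffected areas (5) gave 3 with the filter at the 50th percentile, which left 6 of the 8 in the fit, and 3 to 5 without any 1 array. The mean genotype difference (0) gave 0 to 3 without any 1 array. With the replicate number as a block no count of members changed (2, 7 and 5 in the comparisons of the experiments and 0 in those of genotype). Of the single calls, 350 of 393 alternatives kept the call and 0 changed direction. Over all probe sets the genotype counts moved most: 71 after wax stripping became 28 to 109, 263 in injured recovery skin 43 to 321, 391 on average 183 to 514, 36 in injured imiquimod skin 0 to 108, 36 for the recovery loss 2 to 41, and the smaller counts of 2, 0 and 1 became 0 to 68, 0 to 7 and 0 to 14. The count of 8065 between unaffected areas became 4919 with only its own arrays. The cause was not tested. The mean loss of probe set 5 was -2.09 and -1.35 with pseudocounts of 1 and 64, and that of probe set 8 was -1.22 with 64.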
